A study of Mus musculus with 20 samples.

Results

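Endothelial genes are the transcripts that mark the cells lining blood and lymphatic vessels, and 34 of them were followed here across mammary tumors, organoids made from tumors and organoids from normal gland. The 34 were taken from a list of gene names. All 34 were found among 45318 genes in each count table, and all 34 passed the filter on low counts that left 18698 genes to test. The series holds 20 polyadenylated RNA libraries from FVB mice.

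Tumor-derived samples came from 3 models. In MMTV-PyMT mice the mouse mammary tumor virus promoter drives the polyoma middle T antigen in mammary epithelium. MMTV-Neu-NDL mice carry an activated form of the Neu receptor under the same promoter. In MMTV-Cre;Flox-Neo-Neu-NT mice, called Neu-NT below, Cre made in mammary epithelium switches on an activated Neu. The groups were PyMT organoids cultured for 6 days and titled day 6 (n = 3), PyMT organoids whose label gives 6 days of culture and whose title gives no day, called undated below (n = 2), Neu-NDL organoids cultured for 6 days (n = 3), PyMT organoids at day 0, whose RNA was taken straight after preparation (n = 3), PyMT tumor sections (n = 3), Neu-NT tumor sections (n = 3) and wild-type (WT) organoids from normal mammary gland cultured for 6 days (n = 3). Sections were frozen slices of 30 µm. Organoids are clumps of tissue freed from the gland or tumor, and the PyMT protocol grew them in Matrigel with FGF2. Ages and the number of mice are not given in the sources used here, so p-values measure the spread between these libraries.

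Endothelial cells hold each other through junction proteins such as VE-cadherin, take their growth cues through receptor kinases such as Tie2, and are kept in their fate by ETS, SOX and PROX transcription factors. In a tumor they line the vessels that bring blood, and lymphatic endothelium drains fluid. The markers of the lining are shared by arteries, veins and capillaries, and Prox1 and Lyve1 mark the lymphatic vessels. In bulk RNA, fewer cells of a type and less RNA per cell cannot be told apart. Levels are CPM, the count of a gene over the TMM-scaled size of its library. A gene is called changed where the quasi-likelihood test of edgeR, fitted over all 20 libraries, gave a Benjamini-Hochberg adjusted p under 0.05.

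One library went against its title before any result was drawn. The library titled PyMT day 6 replicate 3 was closest to PyMT tumor section replicate 3, with a correlation of 0.991 over 18698 genes, and its correlation with the other day 6 libraries was 0.906 and 0.868. Over the 34 members its mean absolute log2 difference from that section was 0.18, and from the 4 other 6 day PyMT libraries it was 4.39 to 4.61. Its red blood cell genes summed to 118 CPM, with 81.3 to 146 CPM in PyMT sections and 0.302 to 0.705 CPM in the 4 other 6 day PyMT libraries. Results that include the library are given with and without it, and it is the third day 6 value throughout. A second library, Neu-NT section replicate 3, was closer to PyMT sections (correlation 0.926 with replicate 1) than to the other Neu-NT sections, and its 6 basal epithelial genes summed to 1652 CPM, against 69.1 and 30.7 CPM in the others. Gene counts per library ranged from 17478357 to 48341438, and 6 luminal epithelial genes summed to 3576 to 9850 CPM in all 20 libraries, as the mammary labels say.

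The members lie on 17 chromosomes, 33 on autosomes and Apln on the X. Among them are 2 pairs of close neighbours, Esam and Robo4 with 113 kb between them on chromosome 9 and Pecam1 and Icam2 with 266 kb between them on chromosome 11. Exon bases of 9 members are shared with another annotated gene, and for 5 of these (Egfl7, Sox17, Ramp2, Nos3 and Rasip1) the shared part is over 10% of the exon length in GENCODE M21. The strand setting of the counting is not given in the sources used here, so reads of those genes and their partners cannot be told apart.

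Of the members, 17 have a promoter in the RefSeq table (build GRCm38.p6), and in each the 250 bases before the transcript start nearest the gene's 5′ end were searched on both strands for the ETS core AGGAAG, the FOX and ETS composite AACAGGAA, the SOX site ACAATG and the GATA site AGATAA. The ETS core was in 8 of 17 (47.1%), against 28.6% of 19042 promoters of the same length. The composite, whose last letters overlap an ETS core where a G follows, was in 2 of 17 (11.8%), against 2.0%. A SOX site was in 1 of 17 (5.9%), against 9.7%, and a GATA site in 2 of 17 (11.8%), against 8.9%. A match is a string of letters and was not tested as a binding site. The 4 promoters shown hold a match, start within 50 bases of the annotated gene and cross no annotated exon. They are shown because ETS and GATA factors are known regulators of endothelial and blood genes and because Apln, the last of them, went its own way in culture. Capitals mark the matches, written 5′ to 3′ on the strand of the gene.
Eng: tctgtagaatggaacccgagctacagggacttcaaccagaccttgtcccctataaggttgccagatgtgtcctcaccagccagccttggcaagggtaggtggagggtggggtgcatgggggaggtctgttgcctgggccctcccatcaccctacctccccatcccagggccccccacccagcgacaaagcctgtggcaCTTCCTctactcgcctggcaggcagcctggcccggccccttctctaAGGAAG
Tal1: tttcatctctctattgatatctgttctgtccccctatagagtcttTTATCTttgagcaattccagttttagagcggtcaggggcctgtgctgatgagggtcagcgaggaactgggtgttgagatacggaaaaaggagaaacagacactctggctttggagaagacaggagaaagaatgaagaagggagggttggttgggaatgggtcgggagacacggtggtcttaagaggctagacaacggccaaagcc
Myct1: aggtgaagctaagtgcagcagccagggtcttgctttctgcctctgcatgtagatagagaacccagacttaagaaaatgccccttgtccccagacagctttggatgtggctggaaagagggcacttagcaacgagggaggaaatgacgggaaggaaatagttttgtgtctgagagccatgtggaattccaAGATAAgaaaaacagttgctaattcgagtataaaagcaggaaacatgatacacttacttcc
Apln: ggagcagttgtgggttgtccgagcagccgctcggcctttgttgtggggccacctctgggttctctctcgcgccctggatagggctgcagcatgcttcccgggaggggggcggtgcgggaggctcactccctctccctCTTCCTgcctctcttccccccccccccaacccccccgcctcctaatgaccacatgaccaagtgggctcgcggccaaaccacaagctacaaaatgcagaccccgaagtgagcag
The Eng window, on the plus strand at chr2:32646345-32646594, has 1 ETS core on its own strand starting 6 bases before the start and 1 on the other strand 52 bases before it. The Tal1 window (plus strand, chr4:115056176-115056425) has a GATA match on the other strand at 205 bases, and the Myct1 window (plus strand, chr10:5593478-5593727) has one on its own strand at 61 bases. The Apln window, on the minus strand at chrX:48034854-48035103, has an ETS core on the other strand at 113 bases.

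**Figure D1:**
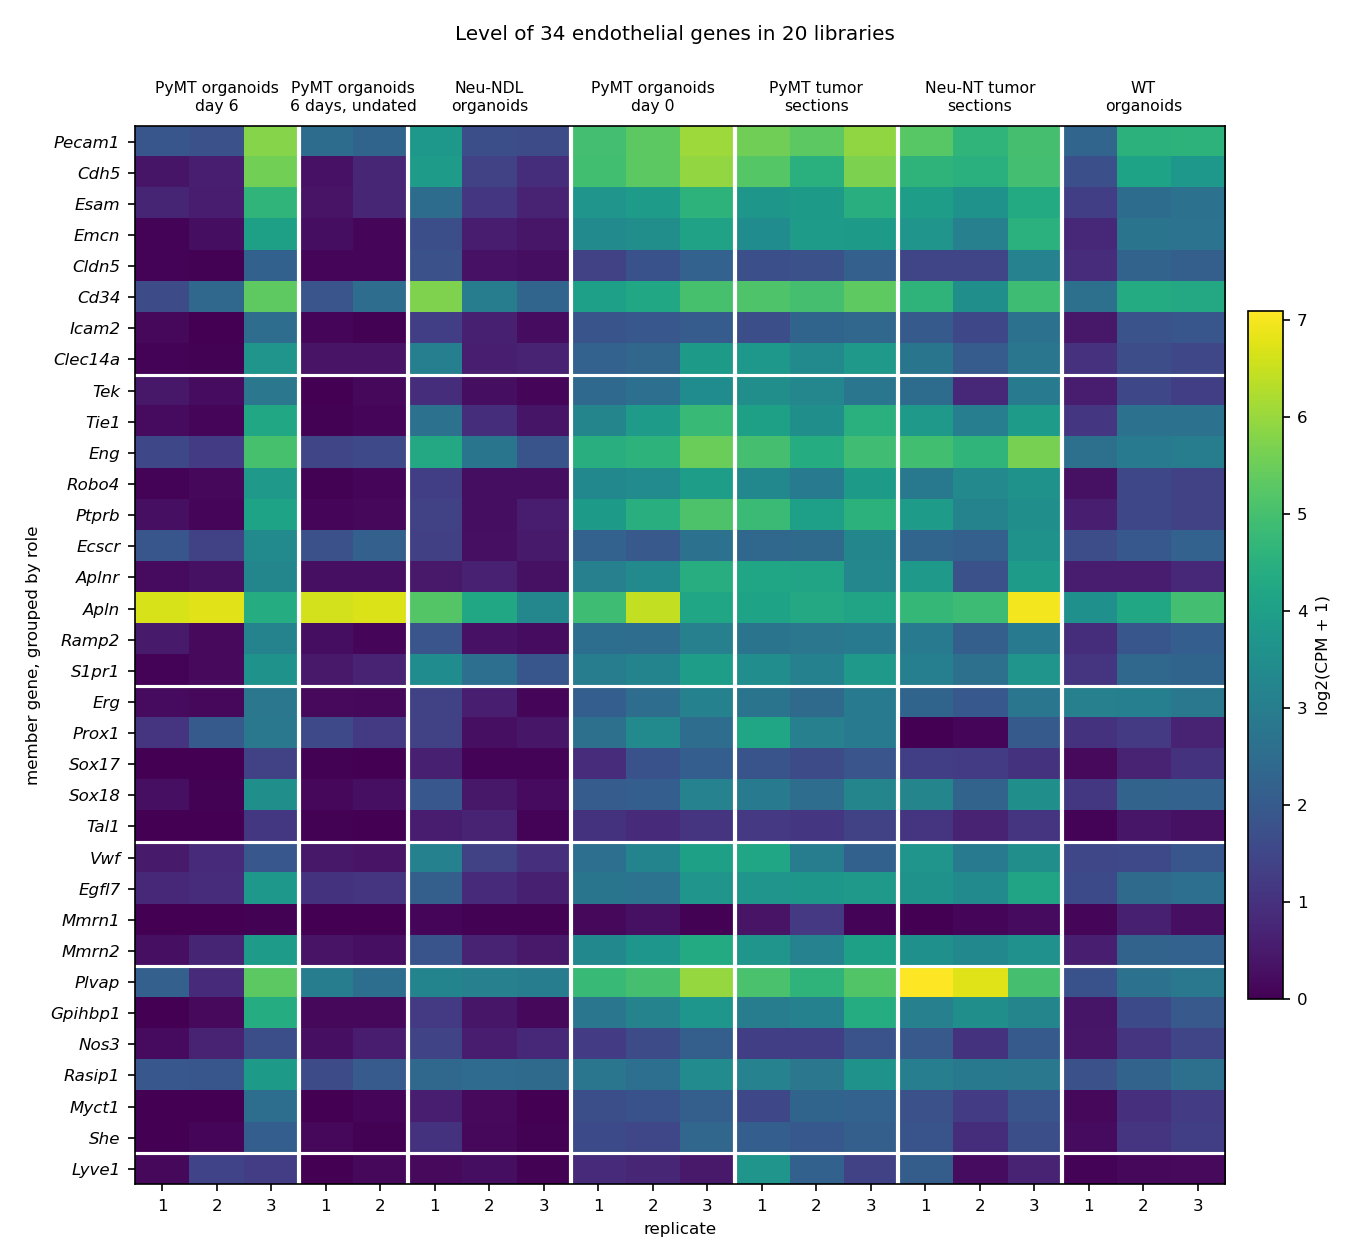
Level of each of the 34 members (rows, grouped by role) in each of the 20 libraries (columns, by group and replicate), coloured by log2(CPM + 1). Most members are dark in day 6 replicates 1 and 2 and in both undated libraries, apart from Apln, and bright in the third day 6 library, which is coloured like the PyMT sections.

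Summed over the members, the level was 123, 132 and 484 CPM in day 6 organoids, 124 and 133 in undated organoids, 214, 63.1 and 39.9 in Neu-NDL organoids, 292, 411 and 580 in day 0 organoids, 444, 347 and 488 in PyMT sections, 457, 334 and 525 in Neu-NT sections and 59.5, 162 and 176 in WT organoids. Sections and day 0 organoids overlapped, and all 9 of those libraries were above the WT and Neu-NDL libraries. In the 4 lowest PyMT cultures, 97.1 to 109 CPM of the sum was Apln, and without Apln the sum was 21.5, 23.2, 27.2 and 29.3 CPM. Per kilobase of exon, the highest mean levels in PyMT sections were those of Plvap (15.2 CPM per kb), Cdh5 (8.66), Pecam1 (7.69) and Eng (6.63), and the lowest were Nos3 (0.447), Tal1 (0.307) and Mmrn1 (0.0903).

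**Figure D2:**
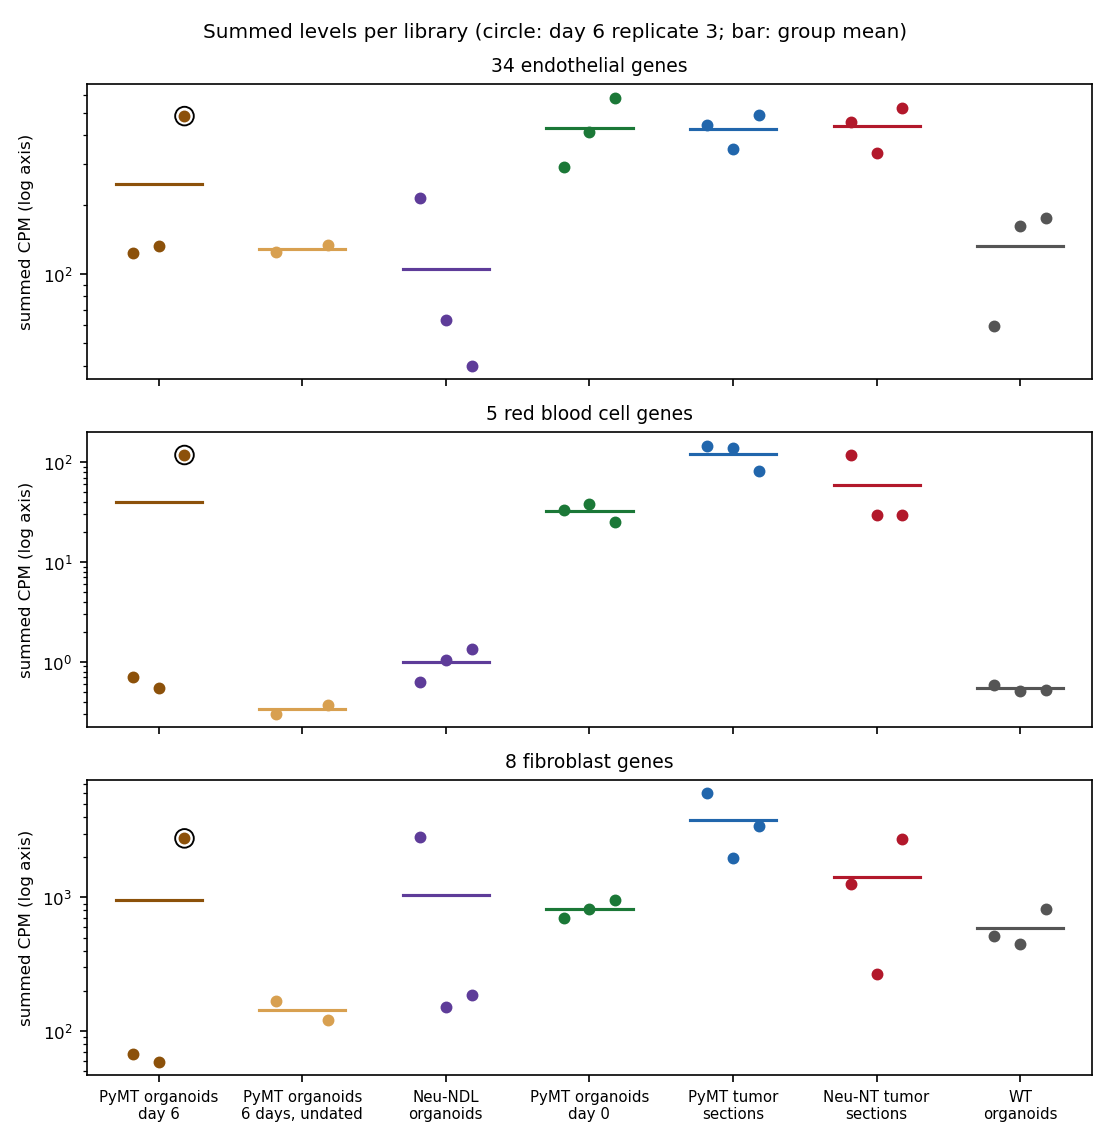
Summed CPM (log axes) per library of the 34 endothelial genes, 5 red blood cell genes and 8 fibroblast genes, by group; points are libraries, bars are group means, and the circle marks the library titled PyMT day 6 replicate 3. The circled library lies at 484, 118 and 2762 CPM, beside the PyMT sections in all 3 panels, while the other day 6 and undated libraries are among the lowest in the red cell and fibroblast panels.

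In freshly prepared PyMT organoids most endothelial genes stood near their level in PyMT tumor sections. None of the 34 members passed the test between day 0 organoids and PyMT sections, where 0.444% of all genes did. The count was again 0 without the library titled day 6 replicate 3, against 0.905% of genes. At shares this low, a count of 0 does not set the members apart from other genes. Large differences could also go uncalled here, as 8 fibroblast genes with a median log2 fold change of -2.24 had 0 calls. One member had an unadjusted p under 0.05, Lyve1, and DESeq2 called 0. The members' median log2 fold change was -0.12, with 11 above and 23 below 0, and the median over all genes was -0.02. As a share of its section mean a member stood at a median of 91.6% in day 0 organoids, and 32 of 34 members were over 50%. The exceptions were Lyve1 at 11.2% and Mmrn1 at 24.7%.

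Markers of other cells went different ways in that step, though none of those that follow passed the test. The 8 fibroblast genes summed to 699, 815 and 957 CPM in day 0 organoids and 5986, 1983 and 3416 CPM in PyMT sections, with 8 of 8 fold changes below 0. The red blood cell genes summed to 32.9, 38.3 and 25.3 CPM in day 0 organoids and 146, 137 and 81.3 CPM in PyMT sections. Mural cell genes, which mark the pericytes and smooth muscle around vessels, had a median log2 fold change of 0.15 with 5 of 8 above 0. One gene of 32 tested in a further list of 35 endothelial genes was called, Klf2, a factor that blood flow induces in endothelium. Klf2 had 52.1, 135 and 64 CPM in day 0 organoids and 4.83, 3.97 and 3.8 CPM in PyMT sections (log2 fold change 4.31, SE 0.53, edgeR adjusted p = 0.000426). It is made by other cell types too, and their part in its level was not tested.

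After 6 days of culture the endothelial genes of PyMT organoids stood at a few percent of their day 0 level in 2 of the 3 day 6 libraries, and the third library decided the count of calls. With all libraries, 0 of 34 members passed between day 6 and day 0 organoids, where 0.626% of all genes did. Vwf had an unadjusted p under 0.05 and DESeq2 called 1 member. Without the library titled day 6 replicate 3, 27 of 34 members fell and none rose, against 7.06% of all genes that fell. The median over the 34 was then -5.13, or -4.90 with the 4 members at 0 in both libraries held at a floor of 3 counts, and it was -1.18 with the third library in. In 32 members both day 6 libraries lay below all 3 day 0 libraries, an arrangement met in 26.8% of all genes. Apln lay above and Lyve1 overlapped. Day 6 replicates 1 and 2 leave this side of the comparison with 2 libraries, and the spread is shared with the other groups.

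The 12 members with the smallest adjusted p in that comparison without the third library were S1pr1, Ptprb, Aplnr, Robo4, Eng, Plvap, Esam, Emcn, Erg, Tie1, Gpihbp1 and Clec14a. The sphingosine 1-phosphate receptor S1pr1 had 0.0543 and 0.137 CPM in day 6 replicates 1 and 2 and 6.91, 8.29 and 14.7 CPM at day 0 (log2 fold change -6.56, SE 0.88, edgeR adjusted p = 0.000549). Ptprb, the vascular phosphatase that acts on Tie2 and VE-cadherin, had 0.217 and 0.0683 CPM against 13.7, 21 and 33.9 CPM at day 0 (log2 fold change -7.39, SE 1.01, edgeR adjusted p = 0.000627). Neither gene overlapped between the times. The falls were smaller for Plvap (log2 fold change -4.26, SE 0.73, edgeR adjusted p = 0.00219) and Eng (log2 fold change -4.16, SE 0.71, edgeR adjusted p = 0.00208). Clec14a, a C-type lectin of endothelium, had 2 counts in the pair of day 6 libraries and 532 at day 0, a ratio of 189 (exact 95% counting interval 52.0 to 1560) that was lower at day 6. Of the other 15 called members, 9 with over 3 counts at day 6 had log2 fold changes of -6.64 to -1.33, the smallest in size being Rasip1 (adjusted p = 0.0356). Icam2, Cldn5 and She had 2 counts each at day 6, and their ratios were 69.6 (19.0 to 579), 65.0 (17.7 to 541) and 67.5 (18.4 to 561), lower at day 6. Sox17, Myct1 and Tal1 were at 0 counts in both day 6 libraries and were at least 37.6-fold, 44.3-fold and 15.9-fold lower than at day 0, against a floor of 3 counts over the pair.

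Fibroblast, leukocyte and red cell genes were low in the same 2 libraries. Mural and platelet sums were not, though 6 of 8 mural genes had fold changes below 0. The fibroblast genes summed to 67.4 and 59.2 CPM there and to 699, 815 and 957 CPM at day 0, and 3 of 8 fell without the third library. Leukocyte genes summed to 20.3 and 26.7 CPM, against 128, 164 and 152 CPM at day 0, and 9 of 10 fell. The red cell genes summed to 0.705 and 0.546 CPM, against 32.9, 38.3 and 25.3 CPM at day 0, with 4 of 4 tested lower and Hba-a2 at 0 in every library. Of 8 mural genes 4 fell, with a median log2 fold change of -2.43 without the third library. Their sum was still 287 and 260 CPM, against 222, 274 and 349.5 CPM at day 0. Their mean log2 CPM was 1.46 and 1.58, against 3.51, 4.04 and 4.14 at day 0. Platelet and megakaryocyte genes summed to 9.17 and 8.26 CPM, against 6.76, 3.79 and 9.58 CPM at day 0, with a median log2 fold change of 0.10 over 4 tested. The 6 luminal epithelial genes summed to 6713 and 5306 CPM, against 5604, 5629 and 6286 CPM at day 0, and none passed the test. The part of these cells in the members' fall was not tested. In the further endothelial list, 17 of 32 tested genes fell and none rose, led by Dll4 (log2 fold change -4.53, SE 0.61, edgeR adjusted p = 0.000561) and Fli1 (-5.92, SE 0.84, adjusted p = 0.000756), both without the third library. With all libraries in, 2 genes of that list fell and none rose. They were Klf2 (log2 fold change -4.45, SE 0.53, edgeR adjusted p = 0.000517) and Sele (-5.99, SE 1.19, adjusted p = 0.0343).

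Day 6 and day 0 libraries of the same number correlated in their deviations from group means, though the labels state no pairs. The comparison was therefore also fitted as paired. With the replicate block 0 members were called, and 27 fell with the replicate block once the pair of replicate 3 was left out. The share of all genes called in these fits is not given here, so the counts cannot be read as particular to the members.

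**Figure D3:**
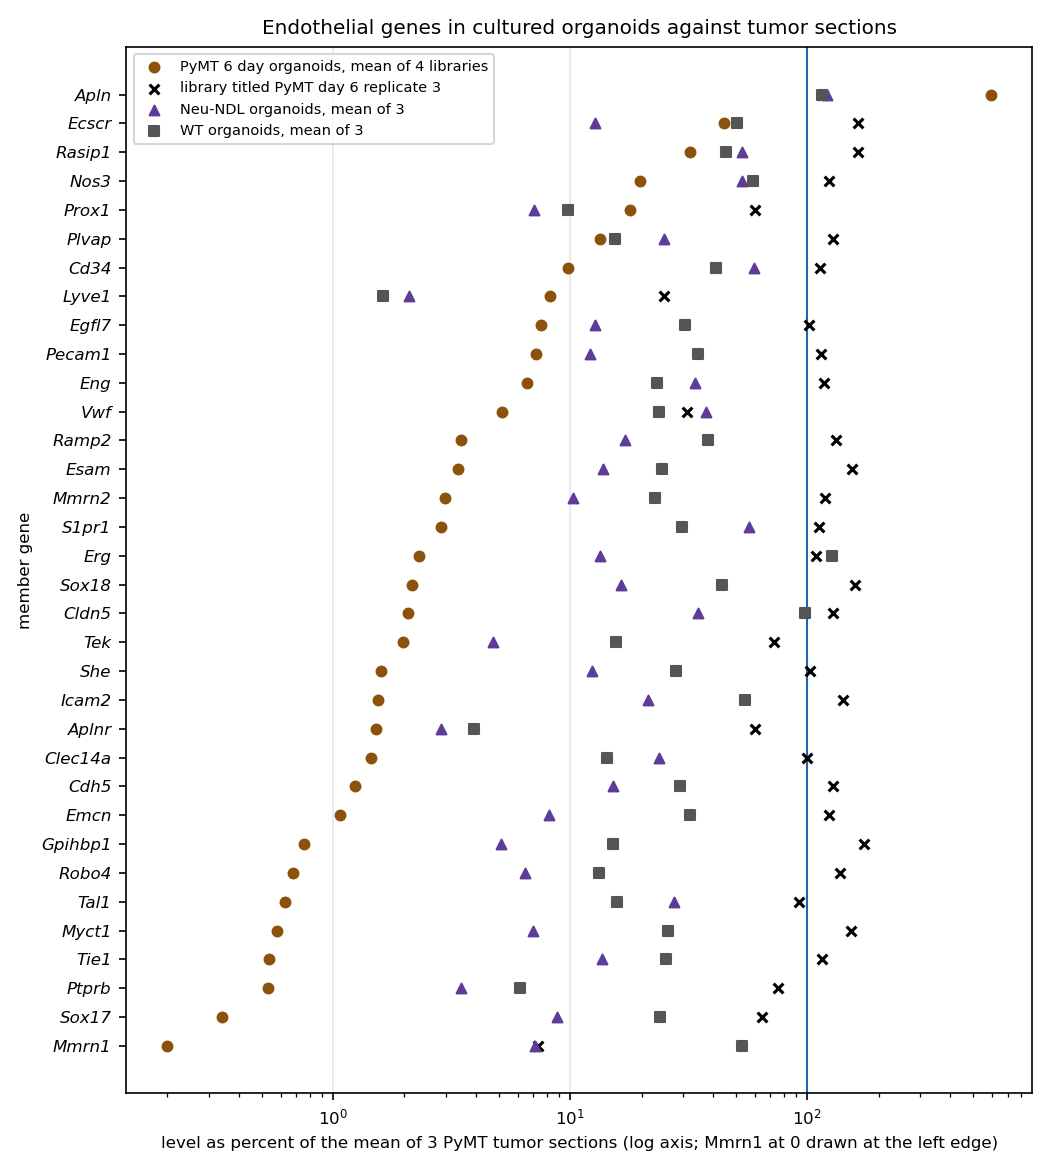
Level of each member as a percent of its mean in 3 PyMT tumor sections (log axis), for the mean of 4 cultured PyMT libraries, the library titled PyMT day 6 replicate 3, the Neu-NDL mean and the WT mean; the vertical line is the section level. The 4 cultured libraries run from 0% (Mmrn1) over a median of 2.22% to 595% (Apln), and the crosses of the third day 6 library lie around the line with a median of 116%.

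Set against PyMT sections, the 5 cultured PyMT libraries (day 6 and undated, each group with equal weight) had 17 members lower and 1 higher with all libraries in, where 8.30% of genes were lower and 7.69% higher. The sides differ in preparation as well as in culture, which this comparison alone cannot tell apart. Calls in this comparison hung on the fit: 0 members passed with only the libraries compared, 0 with the replicate block, 0 with day 6 organoids alone and 7, all lower, with no filter on low counts. The shares of all genes in those fits are not given here. In the fit with all libraries, the 12 with the smallest adjusted p were all lower. Vwf, the clotting factor carrier stored in endothelial granules, had 0.434, 0.785 and 2.83 CPM at day 6, 0.369 and 0.295 in undated organoids and 16.9, 6.98 and 3.6 CPM in sections (log2 fold change -3.76, SE 0.73, edgeR adjusted p = 0.0123). It did not overlap. With a log2 scale throughout, Aplnr fell by 4.09 (SE 0.95, edgeR adjusted p = 0.0181), Ptprb by 4.92 (SE 1.20, edgeR adjusted p = 0.02), Mmrn2 by 3.35 (SE 0.99, edgeR adjusted p = 0.0346) and Erg by 3.42 (SE 1.01, edgeR adjusted p = 0.0349). Lyve1 (adjusted p = 0.0168), Mmrn1 (0.0176), Tek (0.0206), Sox17 (0.0304), Tie1 (0.0319), Robo4 (0.0374) and Tal1 (0.0383) complete the 12. The undated libraries held 0 to 3 counts of each of these 7 in all, so that their fitted folds depend on the prior count and are not given. Emcn, Eng, Egfl7, Ramp2 and Cdh5 also fell, with log2 fold changes of -3.85 to -2.45.

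Without the library titled day 6 replicate 3, 31 of 34 members were lower in cultured PyMT organoids than in sections and 1 was higher, against 20.5% and 14.0% of all genes. The median log2 fold change was -5.52, or -5.46 with Mmrn1, at 0 in all 4 libraries, held at the floor, and it was -3.43 with the library in. The 2 members outside the call were Ecscr and Prox1. Mmrn1 was at least 15.6-fold lower. Sox17 had 1 count in the 4 libraries and 207 in the sections, Myct1 2 and 244, and Tal1 1 and 111. Their ratios were 262 (exact 95% counting interval 46.6 to 10400), 155 (42.3 to 1280) and 141 (24.7 to 5600), lower in culture. Leaving out 1 undated library instead, with the third day 6 library kept, gave 1 or 4 calls in all, and leaving out 1 section gave 0 to 6.

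What remained in the 4 cultured libraries differed between members. As a share of the section mean, 22 of 34 were under 5% and 28 were under 10%. The lowest were Mmrn1 at 0%, Sox17 at 0.34%, Ptprb at 0.533%, Tie1 at 0.534%, Myct1 at 0.578%, Tal1 at 0.624%, Robo4 at 0.68% and Gpihbp1 at 0.755%. The sialomucin Emcn stood at 1.07% and VE-cadherin (Cdh5) at 1.24%, while Tek at 1.98% and Cldn5 at 2.08% were beside the median of 2.22%. At the top, after Apln, were Ecscr at 44.5%, Rasip1 at 31.9%, Nos3 at 19.7%, Prox1 at 17.8% and Plvap at 13.3%. Ecscr, a regulator of endothelial movement and survival, had 2.71, 1.57 and 9.39 CPM at day 6 and 2.41 and 3.5 CPM in undated organoids, against 4.16, 4.52 and 8.52 CPM in sections. Rasip1, which acts in vessel lumen formation, had 2.77, 2.73 and 13.6 CPM at day 6 and 2.08 and 3.09 CPM in undated organoids, against 7.88, 6.08 and 11.2 CPM in sections. Each of the 4 libraries without the third day 6 value was below all sections for both genes. Rasip1 and Nos3 share 1374 and 1334 exon bases with other genes, and the part of those genes in the counts was not tested.

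The values of single members by role show where these groups sit, and the third day 6 value is in every case the library that stands apart. Pecam1 (CD31) and Cdh5 are adhesion molecules of the endothelial junction. Pecam1 had 2.71, 2.42 and 54.7 CPM in day 6 organoids, 4.73 and 3.87 in undated organoids and 12.9, 2.28 and 2.09 in Neu-NDL organoids. It had 30.7, 38.5 and 66.1 CPM in day 0 organoids, 45.8, 38.7 and 59.1 in PyMT sections, 37.4, 24.2 and 31.2 in Neu-NT sections and 4, 22.5 and 23.2 in WT organoids. Pecam1 overlapped between day 0 organoids and PyMT sections, and 2 of 3 Neu-NDL libraries were as low as the PyMT cultures. Cdh5 had 0.326, 0.512 and 46.7 CPM in day 6 organoids, 0.268 and 0.7 in undated organoids and 14.1, 1.57 and 0.914 in Neu-NDL organoids. The level was 30, 38.3 and 61 CPM in day 0 organoids, 36.5, 21.6 and 51.1 in PyMT sections, 23.3, 21.5 and 30.7 in Neu-NT sections and 2.35, 16.5 and 12.9 in WT organoids. Cdh5 had its highest mean at day 0, was under 1 CPM in 4 PyMT cultures, and did not overlap between sections and WT organoids. Emcn had 0.0543, 0.205 and 15.5 CPM in day 6 organoids, 0.201 and 0.0737 in undated organoids and 2.26, 0.45 and 0.337 in Neu-NDL organoids. Emcn stood at 9.56, 10.3 and 16.1 CPM in day 0 organoids, 9.93, 14.1 and 13.5 in PyMT sections, 11.9, 7.53 and 22 in Neu-NT sections and 0.749, 5.66 and 5.53 in WT organoids. Emcn overlapped among the 3 tissue-derived groups and was lower in WT replicate 1 than in the other WT libraries.

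Cldn5 had 0.0543, 0.0342 and 3.57 CPM in day 6 organoids, 0.0671 and 0.0737 in undated organoids and 2.38, 0.281 and 0.192 in Neu-NDL organoids. The counterpart values were 1.61, 2.43 and 3.69 CPM in day 0 organoids, 2.35, 2.36 and 3.56 in PyMT sections, 1.81, 1.8 and 7.87 in Neu-NT sections and 0.878, 3.78 and 3.44 in WT organoids. Cldn5, a tight junction protein, was unlike most members in that WT replicates 2 and 3 were above 2 of 3 PyMT sections, and the WT mean was 97.9% of the section mean. Cd34 had 2.06, 4.2 and 39.4 CPM in day 6 organoids, 2.68 and 4.79 in undated organoids and 51.9, 6.94 and 4.02 in Neu-NDL organoids. Outside those groups Cd34 had 15.2, 18.1 and 31.6 CPM in day 0 organoids, 34.5, 31.2 and 39.4 in PyMT sections, 23.7, 10.5 and 28.9 in Neu-NT sections and 5.11, 19.7 and 18.5 in WT organoids. Cd34, a sialomucin that fibroblasts and stem cells also carry, was highest of all in Neu-NDL replicate 1. That library also had the most fibroblast RNA of its group, 2807 CPM against 150 and 186 CPM in the others, and the part of fibroblasts in its Cd34 was not tested. Esam, another junction molecule, is one of 6 members with their highest mean at day 0. Esam had 0.651, 0.444 and 24 CPM in day 6 organoids, 0.302 and 0.7 in undated organoids and 4.64, 1.18 and 0.626 in Neu-NDL organoids. Esam stood at 12, 14.1 and 22.9 CPM in day 0 organoids, 12.4, 13.5 and 21 in PyMT sections, 14.6, 11.3 and 19.2 in Neu-NT sections and 1.47, 4.72 and 5.29 in WT organoids. Its 4 low cultures were under 1 CPM. Icam2, a ligand for leukocyte integrins, and Clec14a had section means of 3.44 and 11.9 CPM and stood at 1.55% and 1.44% of them in the 4 cultured libraries.

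Tek (Tie2) is the receptor for angiopoietins and Eng a co-receptor for TGF-beta family ligands. Tek had 0.38, 0.171 and 6.06 CPM in day 6 organoids, 0 and 0.111 in undated organoids and 0.888, 0.197 and 0.0962 in Neu-NDL organoids. Tek reached 4.42, 5.05 and 9.87 CPM in day 0 organoids, 10.4, 8.74 and 5.9 in PyMT sections, 4.73, 0.721 and 6.47 in Neu-NT sections and 0.49, 1.92 and 1.51 in WT organoids. Neu-NT replicate 2 was low for Tek and overlapped WT organoids. Eng had 1.9, 1.4 and 31.7 CPM in day 6 organoids, 1.81 and 1.95 in undated organoids and 18.6, 5.79 and 2.6 in Neu-NDL organoids. In the other groups Eng had 20.7, 23 and 44.5 CPM in day 0 organoids, 30.8, 20.1 and 29.5 in PyMT sections, 29.6, 23.8 and 48.5 in Neu-NT sections and 5.19, 6.51 and 7.07 in WT organoids. Eng kept more of its level in culture than Tek and was above WT organoids in every section. Eng is also made by some stromal cells, whose part was not tested. Ramp2, which helps form the adrenomedullin receptor, and S1pr1 had section means of 6.13 and 10.4 CPM and stood at 3.45% and 2.86% of them in the 4 low cultures.

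Tie1, Robo4 and Ptprb also had their highest means at day 0. Tie1 is the orphan partner of Tie2. Tie1 had 0.163, 0.0683 and 18.2 CPM in day 6 organoids, 0.0335 and 0.0737 in undated organoids and 5.23, 0.9 and 0.313 in Neu-NDL organoids. Tie1 had 8.37, 13.9 and 26.3 CPM in day 0 organoids, 15.4, 10.6 and 21.6 in PyMT sections, 13, 7.16 and 14.1 in Neu-NT sections and 1.19, 5.42 and 5.44 in WT organoids. The 4 low cultures held 0.0335 to 0.163 CPM. Robo4 is a roundabout receptor of vessels. Robo4 had 0.0543, 0.102 and 13.4 CPM in day 6 organoids, 0.0335 and 0.0737 in undated organoids and 1.49, 0.197 and 0.192 in Neu-NDL organoids. Robo4 stood at 8.89, 9.75 and 14.8 CPM in day 0 organoids, 8.97, 6.43 and 13.7 in PyMT sections, 6.24, 9.06 and 11.4 in Neu-NT sections and 0.258, 1.92 and 1.66 in WT organoids. WT organoids were below all sections for Robo4. Ptprb had 0.217, 0.0683 and 16.4 CPM in day 6 organoids, 0.0671 and 0.111 in undated organoids and 1.59, 0.197 and 0.457 in Neu-NDL organoids. Ptprb reached 13.7, 21 and 33.9 CPM in day 0 organoids, 27.4, 15.1 and 22.6 in PyMT sections, 14.1, 8.07 and 10.6 in Neu-NT sections and 0.516, 1.9 and 1.57 in WT organoids. Ptprb was low in WT organoids, at 6.12% of its PyMT section mean.

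Apelin (Apln) and its receptor Aplnr are a ligand and receptor pair of growing vessels, and they parted in culture. Apln had 101, 109 and 20.2 CPM in day 6 organoids, 97.1 and 104 in undated organoids and 36, 17.9 and 8.73 in Neu-NDL organoids. Apln had 28.6, 85.9 and 17.3 CPM in day 0 organoids, 16.5, 18.6 and 16.7 in PyMT sections, 25.7, 28 and 125 in Neu-NT sections and 10.9, 17.8 and 30.6 in WT organoids. Day 6 replicates 1 and 2 and both undated libraries were above every other library apart from Neu-NT replicate 3. Aplnr had 0.163, 0.239 and 8.54 CPM in day 6 organoids, 0.235 and 0.221 in undated organoids and 0.404, 0.562 and 0.241 in Neu-NDL organoids. For the receptor the values were 7.48, 9.3 and 20.5 CPM in day 0 organoids, 17.2, 16.6 and 8.67 in PyMT sections, 13, 2.39 and 14 in Neu-NT sections and 0.465, 0.47 and 0.738 in WT organoids. Aplnr was at or under 1 CPM in all cultured groups, WT included, apart from the library that stands apart. Apln rose in cultured PyMT organoids against sections (log2 fold change 2.35, SE 0.73, edgeR adjusted p = 0.0408 with all libraries; log2 fold change 2.57, SE 0.67, edgeR adjusted p = 0.0089 without the third day 6 library). Against WT organoids it rose in the fit without that library (log2 fold change 2.38, SE 0.67, edgeR adjusted p = 0.0348; adjusted p = 0.103 with it). Between day 6 and day 0 it did not pass the test in either fit. Day 0 replicate 2 had 85.9 CPM. Cdh5 and Tie1 were at 0.0335 to 0.70 CPM in day 6 replicates 1 and 2 and both undated libraries. Apelin is made by endothelium and by other cells, and the part of each in its level was not tested.

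Flt1, a VEGF receptor of the further endothelial list, was also high in the cultured PyMT libraries. Flt1 had 57.7, 36.7 and 18.6 CPM at day 6 and 83 and 51.9 CPM in undated organoids, against 4.83, 7.9 and 6.24 CPM in WT organoids (log2 fold change 2.99, SE 0.54, edgeR adjusted p = 0.00824), with no overlap. In that list as a whole, 2 of 32 tested genes were higher and 12 lower in cultured PyMT organoids than in sections with all libraries, and 2 higher and 21 lower without the third day 6 library.

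Among the transcription factors, Erg is an ETS factor of mature endothelium. Erg had 0.163, 0.102 and 6.06 CPM in day 6 organoids, 0.134 and 0.111 in undated organoids and 1.64, 0.506 and 0.0722 in Neu-NDL organoids. Erg had 3.33, 4.8 and 7.67 CPM in day 0 organoids, 5.63, 4.47 and 6.5 in PyMT sections, 3.89, 2.88 and 5.85 in Neu-NT sections and 7.54, 7.36 and 6.15 in WT organoids. All 3 WT libraries were above all Neu-NT sections and above 2 of 3 PyMT sections, and Erg was the one member with its highest mean in WT organoids. WT replicate 1, the lowest of its group for 32 of 34 members, was the highest WT library for Erg. Erg thus did not follow most members among the WT libraries. Which cells held Erg RNA in WT organoids was not tested, here or in the comparisons below. Erg fell in cultured PyMT organoids against WT organoids (log2 fold change -3.76, SE 1.02, edgeR adjusted p = 0.0499 with all libraries; log2 fold change -5.76, SE 0.72, edgeR adjusted p = 0.000523 without the third day 6 library). Sox17 had 0, 0 and 1.59 CPM in day 6 organoids, 0.0335 and 0 in undated organoids and 0.545, 0.0562 and 0.0481 in Neu-NDL organoids. Sox17 reached 0.883, 2.43 and 3.34 CPM in day 0 organoids, 2.59, 2.16 and 2.65 in PyMT sections, 1.51, 1.35 and 1.04 in Neu-NT sections and 0.129, 0.598 and 1.05 in WT organoids. Sox17, an arterial factor, rested on 0 or 1 reads in each of the 4 low cultures. Sox18 had 0.217, 0.0342 and 10.6 CPM in day 6 organoids, 0.101 and 0.221 in undated organoids and 2.77, 0.365 and 0.144 in Neu-NDL organoids. Sox18 stood at 3.17, 3.34 and 7.84 CPM in day 0 organoids, 6.75, 4.82 and 8.44 in PyMT sections, 8.39, 3.79 and 10.7 in Neu-NT sections and 1.21, 3.78 and 3.72 in WT organoids. Sox18 acts in blood and lymphatic vessels and overlapped among day 0 organoids and both kinds of section. Tal1, which acts with GATA factors in blood and endothelium, was at 1.34 ± 0.247 CPM in PyMT sections (SD, n = 3), the lowest mean of the 5 factors there.

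Lyve1 and Prox1 mark lymphatic endothelium, Lyve1 as a hyaluronan receptor that some macrophages also carry and Prox1 as the factor that sets lymphatic fate. Lyve1 had 0.109, 1.67 and 1.44 CPM in day 6 organoids, 0 and 0.111 in undated organoids and 0.141, 0.197 and 0.0241 in Neu-NDL organoids. Lyve1 had 0.832, 0.708 and 0.39 CPM in day 0 organoids, 12.1, 3.57 and 1.62 in PyMT sections, 3.29, 0.18 and 0.621 in Neu-NT sections and 0.0516, 0.107 and 0.123 in WT organoids. The PyMT sections were the highest and spread widely, and day 6 replicate 2 stood at the level of the lowest section. Prox1 had 1.09, 3.04 and 6.21 CPM in day 6 organoids, 1.95 and 1.29 in undated organoids and 1.64, 0.225 and 0.337 in Neu-NDL organoids. The factor Prox1 had 5.09, 9.6 and 4.83 CPM in day 0 organoids, 17.2, 7.49 and 6.38 in PyMT sections, 0, 0.0901 and 3.05 in Neu-NT sections and 1.06, 1.32 and 0.646 in WT organoids. Neu-NT replicates 1 and 2 were near 0 for Prox1 while all PyMT sections were above 6 CPM. In the 4 low PyMT cultures Prox1 stood at 17.8% of its PyMT section mean. Which cells held Prox1 RNA was not tested. The pair was not matched in Neu-NT replicate 1, which had Lyve1 at 3.29 CPM and Prox1 at 0. Mmrn1, a multimerin of lymphatic vessels and platelets, was near the detection limit in every group, with 0.294, 1.26 and 0.0396 CPM in PyMT sections.

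Of the secreted members, Vwf carries clotting factor VIII and Egfl7 is a matrix protein of vessel sprouts that hosts a microRNA. Vwf had 0.434, 0.785 and 2.83 CPM in day 6 organoids, 0.369 and 0.295 in undated organoids and 7.67, 1.63 and 0.962 in Neu-NDL organoids. Vwf had 4.99, 8.24 and 15.5 CPM in day 0 organoids, 16.9, 6.98 and 3.6 in PyMT sections, 12.1, 6.44 and 10.4 in Neu-NT sections and 1.86, 1.99 and 2.71 in WT organoids. For Vwf the third day 6 library was below all PyMT sections, at 31.0% of their mean. Egfl7 had 0.76, 0.854 and 12.9 CPM in day 6 organoids, 1.04 and 1.14 in undated organoids and 3.45, 0.787 and 0.553 in Neu-NDL organoids. Egfl7 stood at 5.77, 5.46 and 12.1 CPM in day 0 organoids, 11.9, 12.5 and 13.4 in PyMT sections, 11.2, 9.46 and 16.6 in Neu-NT sections and 2.04, 4.5 and 5.01 in WT organoids. The 3 PyMT sections were close together for Egfl7, and 401 of its 3581 exon bases are shared with other genes. Mmrn2 is a multimerin of the vessel matrix. Mmrn2 had 0.217, 0.649 and 13.9 CPM in day 6 organoids, 0.302 and 0.221 in undated organoids and 2.62, 0.59 and 0.409 in Neu-NDL organoids. Mmrn2 had 8.94, 12.2 and 19.2 CPM in day 0 organoids, 11.9, 7.79 and 15.5 in PyMT sections, 10.8, 8.92 and 11 in Neu-NT sections and 0.516, 3.8 and 3.72 in WT organoids. It was under 0.7 CPM in the 4 low cultures, and its mean was highest at day 0.

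Plvap forms the diaphragms of leaky, fenestrated vessels and Nos3 is the endothelial nitric oxide synthase. Plvap had 3.53, 0.785 and 38.7 CPM in day 6 organoids, 6.88 and 4.9 in undated organoids and 8.14, 7.59 and 6.98 in Neu-NDL organoids. Plvap had 27.3, 31.1 and 62.1 CPM in day 0 organoids, 32.4, 23.4 and 35 in PyMT sections, 136, 107 and 31.1 in Neu-NT sections and 2.45, 5.4 and 6.21 in WT organoids. Neu-NT replicates 1 and 2 were far above every other library, and Neu-NT replicate 3, the library that stands apart from its group, was in the range of the PyMT sections. Nos3 had 0.163, 0.615 and 2.29 CPM in day 6 organoids, 0.235 and 0.442 in undated organoids and 1.76, 0.45 and 0.746 in Neu-NDL organoids. Nos3 had 1.4, 2.12 and 3.41 CPM in day 0 organoids, 1.5, 1.51 and 2.53 in PyMT sections, 2.95, 1.04 and 3.05 in Neu-NT sections and 0.336, 1.13 and 1.81 in WT organoids. Nos3 was low everywhere and overlapped between WT organoids and PyMT sections. Gpihbp1, which holds lipoprotein lipase on capillaries, had 11.5 ± 7.28 CPM in PyMT sections (SD, n = 3) and 0.755% of that in the 4 cultured libraries. Myct1 and the adaptor She had 3.19 and 3.23 CPM in PyMT sections and 0.578% and 1.59% of that in culture.

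**Figure D4:**
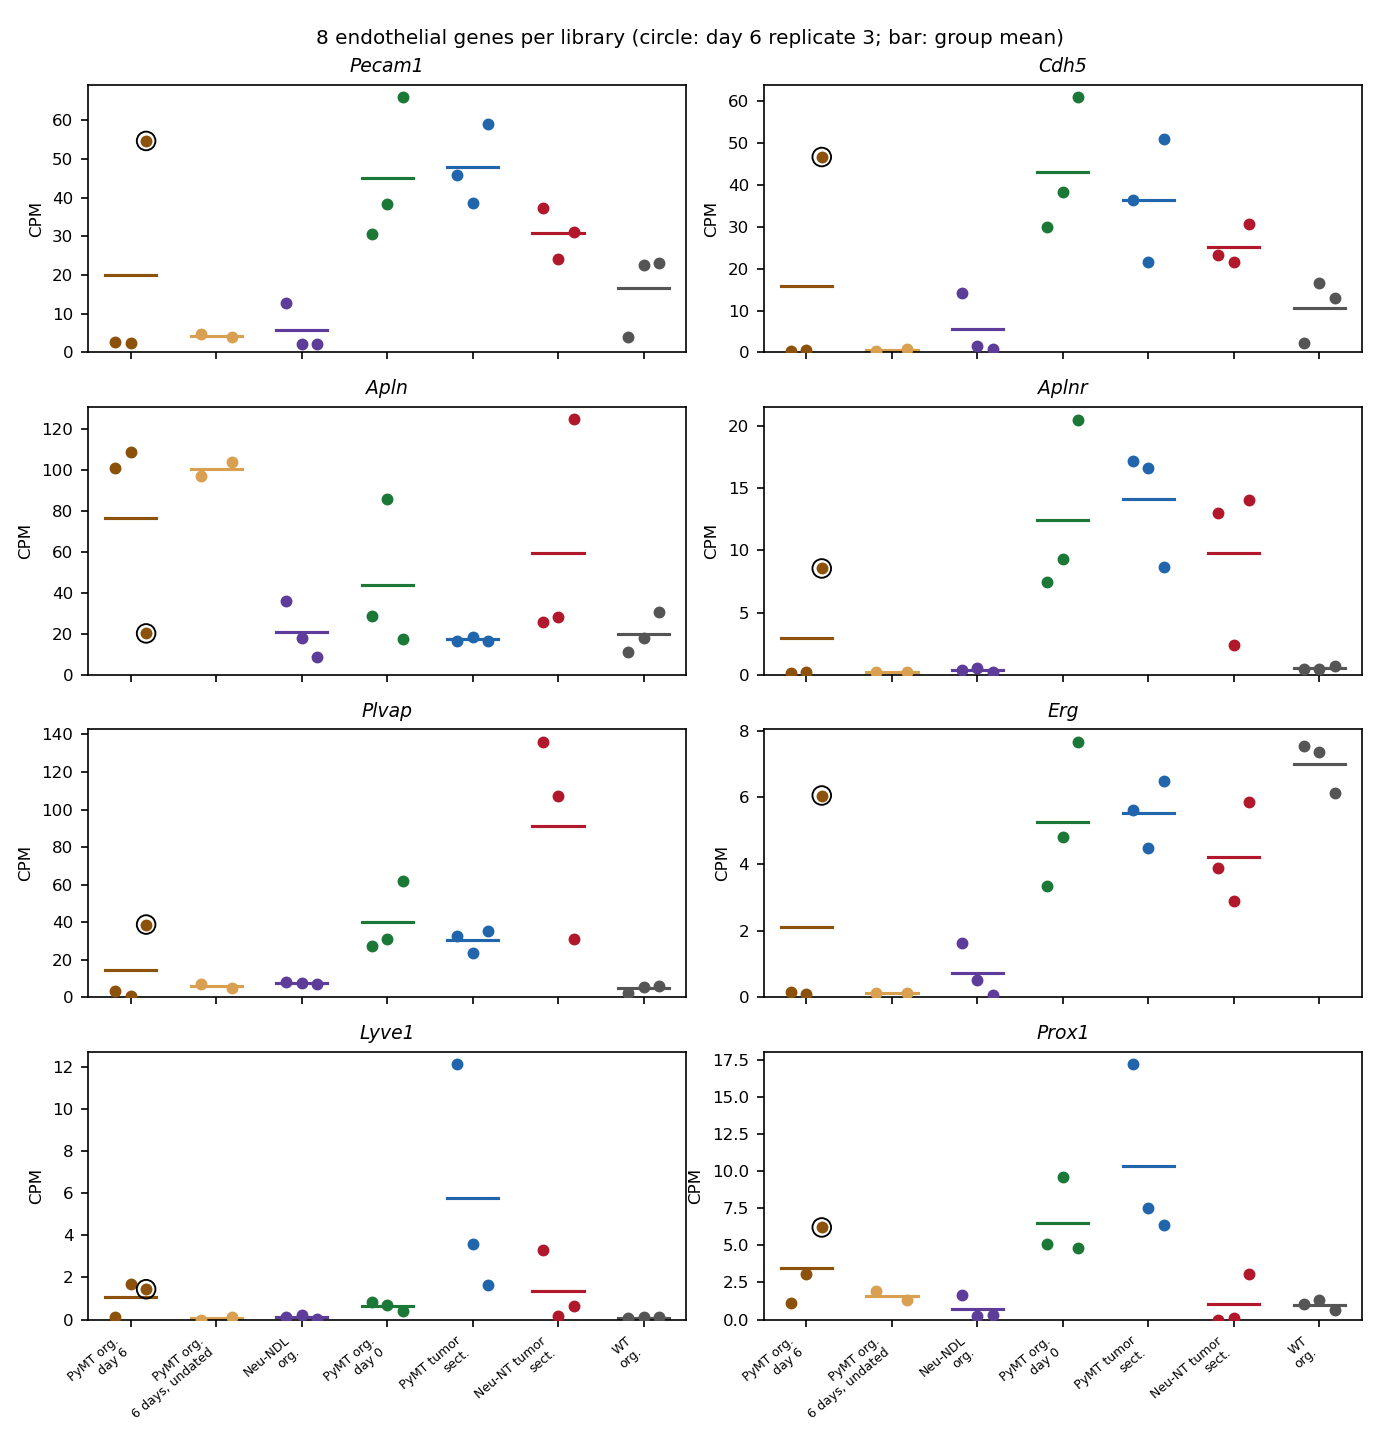
CPM of 8 members per library by group (linear axes from 0); points are libraries, bars are group means and the circle marks the library titled PyMT day 6 replicate 3. Apln is at 97.1 to 109 CPM in 4 cultured PyMT libraries where Cdh5 and Aplnr are under 1 CPM, Plvap peaks in 2 Neu-NT sections at 136 and 107 CPM, and Erg in WT organoids is at 6.15 to 7.54 CPM.

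Most endothelial genes had higher mean levels in tumor sections than in normal organoids, and few single members passed the test. In PyMT sections 2 of 34 were called, both higher, where 6.45% of all genes were higher. These were Lyve1 (log2 fold change 5.89, SE 1.27, edgeR adjusted p = 0.0127) and Aplnr (log2 fold change 4.66, SE 1.15, edgeR adjusted p = 0.0198). The members' median log2 fold change was 1.89, with 32 of 34 above 0, and the median over all genes was 0.03. In 28 members all 3 sections lay above all 3 WT libraries, which held for 23.2% of all genes. The 6 others were Erg, Apln, Mmrn1, Cldn5, Icam2 and Nos3. Without the library titled day 6 replicate 3, which is in neither group but in the shared estimate of spread, 16 members were higher, against 11.7% of genes. Beyond Aplnr and Lyve1 they were Ptprb, Plvap, Eng, Robo4, Tal1, Rasip1, Clec14a, Gpihbp1, Esam, S1pr1, Tek, Egfl7, Mmrn2 and Vwf, with log2 fold changes of 1.14 to 4.03. WT organoids were freed from the gland and cultured for 6 days, and sections were frozen slices with no culture. The model, the preparation and the culture thus cannot be told apart, here or for Neu-NT sections.

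In Neu-NT sections 3 of 34 members rose against the same WT organoids, where 10.5% of all genes were higher. Plvap rose the most (log2 fold change 4.29, SE 0.98, edgeR adjusted p = 0.00817), followed by Aplnr (log2 fold change 4.13, SE 1.12, edgeR adjusted p = 0.0186) and Lyve1 (log2 fold change 3.82, SE 1.19, edgeR adjusted p = 0.035). The median over the members was 1.46, with 32 of 34 above 0. Libraries did not overlap, sections above, in 21 members, against 19.4% of all genes. When the library titled day 6 replicate 3 was left out, 11 members were higher, against 13.8% of genes. These were Plvap, Aplnr, Ptprb, Eng, Robo4, Lyve1, Esam, Vwf, Egfl7, Tal1 and Gpihbp1, with log2 fold changes of 1.69 to 4.29. With Neu-NT replicate 3 left out as well, 6 were higher and 1 lower, against 14.7% and 14.3% of genes. The 6 were Plvap (log2 fold change 4.70, SE 0.51, edgeR adjusted p = 3.8e-05), Aplnr, Ptprb, Eng, Lyve1 and Robo4, and the lower one was Prox1, with 0 and 0.0901 CPM in the 2 sections left and 1.06, 1.32 and 0.646 CPM in WT organoids. Prox1 had no such direction with Neu-NT replicate 3 in, where its log2 fold change was 0.03 (SE 1.15, edgeR adjusted p = 0.991). Leaving out any 1 WT library left 1 call in Neu-NT sections and 0 in PyMT sections, and leaving out PyMT section replicate 1 left 1 in PyMT sections. The leukocyte list rose with the members in both models, with 7 of 10 genes called in PyMT sections and 9 of 10 in Neu-NT sections, and the red cell list with 4 and 3 of 4 tested. Their part in the members' levels was not tested. Of the further endothelial list, 4 genes were higher and 1 lower in PyMT sections and 7 higher and 2 lower in Neu-NT sections, of 32 tested. Both comparisons share the WT libraries.

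Between the tumor types, 0 of 34 members passed in PyMT sections against Neu-NT sections, where 9.70% of all genes did. There were 3 with an unadjusted p under 0.05, Prox1, Apln and Mmrn1, and DESeq2 called 1. The median was 0.37, with 25 of 34 above 0. The count was again 0 without the library titled day 6 replicate 3, against 14.8% of genes. With Neu-NT replicate 3 left out too, 2 members passed, against 23.2% of genes. Prox1 was higher in PyMT sections, with 17.2, 7.49 and 6.38 CPM there and 0 and 0.0901 CPM in the other 2 Neu-NT sections (adjusted p = 0.000623). Plvap was lower, with 32.4, 23.4 and 35 CPM in PyMT sections and 136 and 107 CPM in those of Neu-NT (log2 fold change -2.02, SE 0.47, edgeR adjusted p = 0.0073). With Neu-NT replicate 3 alone left out, 1 member passed. Both directions were those of the fit with all libraries, where Prox1 had log2 fold change 3.32, SE 1.22, edgeR adjusted p = 0.0935 and Plvap log2 fold change -1.60, SE 0.88, edgeR adjusted p = 0.268.

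Normal and tumor organoids were compared after 6 days of culture. In cultured PyMT organoids against WT organoids, 1 member passed with all libraries, Erg, which fell, where 2.49% of all genes fell. Without the library titled day 6 replicate 3, 25 members were lower and Apln was higher, against 6.93% and 3.91% of genes. The median log2 fold change was then -3.56, or -3.48 with Mmrn1 held at the floor, and -1.16 with that library in. After Erg, the smallest adjusted p were those of S1pr1 (log2 fold change -3.74, SE 0.58, edgeR adjusted p = 0.00202), Tie1 (adjusted p = 0.00347) and Emcn (log2 fold change -4.79, SE 0.82, edgeR adjusted p = 0.00357). Icam2, Cldn5, Cdh5, Ptprb, Robo4, Sox18, Gpihbp1 and Esam complete the 12 smallest, with adjusted p of 0.00454 to 0.0111. Sox17, Myct1 and Tal1, on 1 or 2 counts in the 4 PyMT libraries, were lower by ratios of 59.4 (exact 95% counting interval 10.3 to 2380), 42.1 (11.3 to 353) and 23.0 (3.79 to 945), and Mmrn1 was at least 10.6-fold lower. Cldn5 had 0.0342 to 0.0737 CPM in the 4 libraries and 0.878, 3.78 and 3.44 CPM in WT organoids. The Erg call was lost, leaving 0, without any 1 of the WT or undated libraries or day 6 replicate 1. Fibroblast genes were lower as well, with 59.2 to 167 CPM summed in the 4 PyMT libraries and 511, 449 and 819.8 CPM in WT organoids. In that fit 4 of 8 fell, and their part was not tested. Red cell genes were near 0 on both sides, at 0.302 to 0.705 CPM in the 4 PyMT libraries and 0.512 to 0.594 CPM in WT organoids.

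In Neu-NDL organoids against WT organoids, 0 of 34 members passed, where 4.52% of all genes did. There were 3 with an unadjusted p under 0.05 (Erg, Ecscr and Mmrn1), and DESeq2 called 2. The median was -0.97, with 10 of 34 above 0. In the fit without the library titled day 6 replicate 3, Erg fell, against 3.74% of all genes that fell (log2 fold change -3.23, SE 0.68, edgeR adjusted p = 0.00986). Erg had 1.64, 0.506 and 0.0722 CPM in Neu-NDL organoids and 7.54, 7.36 and 6.15 CPM in WT organoids, with no overlap. One member was also called when Neu-NDL replicate 1 alone was left out. The Neu-NDL libraries were far apart, and replicate 1 was the highest of the 3 in 30 of 34 members, with sums of 214, 63.1 and 39.9 CPM. Its fibroblast sum was also the highest, and its leukocyte sum of 531 CPM was near that of replicate 2 at 456 CPM. In WT organoids replicate 1 was the lowest in 32 members, while its fibroblast sum of 511 CPM lay between those of the others (449 and 819.8 CPM). All comparisons with WT organoids share these 3 libraries. All 10 leukocyte genes had higher values in Neu-NDL organoids and 5 were called.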

How the data were processed

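RNA was made into polyadenylated libraries with a TruSeq kit, per the labels' protocols. The deposited values are raw gene counts from HTSeq, and CASAVA, FastQC, STAR and DESeq2 and build mm10 are named with no role, per the submitters' processing notes. Versions, annotation release and strand setting are not given in the sources used here. Rows that name no gene were left out (no feature 5.6% to 12.33% and ambiguous 4.68% to 7.39% of gene, no feature and ambiguous counts together). Gene names came from GENCODE M21, in which 98.6% of IDs matched.

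Libraries were grouped by their labels. edgeR 4.0.16 (R 4.3.3) was fitted to all 20 with TMM scaling, filterByExpr and 1 mean per group (13 residual degrees of freedom), and p-values were Benjamini-Hochberg adjusted over 18698 genes. The SE is the log2 fold change over the root of F. Counting intervals and floors (95%, 3 counts) cover counting error only. The script was tested on simulated data. The members and lists were chosen with earlier results of these data known.

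The text names every called member, or the 12 with the smallest adjusted p, and gives every library for 18 members chosen by role and for those highest outside sections. Of the further endothelial list the text names Klf2, Sele, Dll4, Fli1, Flt1, Hey2, Podxl and Stab1, and of the lists of other cells only Hba-a2. Alternatives were DESeq2 1.42.0, RLE scaling, no filter, fewer libraries and a replicate block. Same-numbered day 6 and day 0 libraries correlated at 0.287, 0.428 and 0.317 in their deviations from group means, and the labels do not state pairs. The day 6 mean includes the library that stands apart, so these values are not independent of each other. Day 6 replicates 1, 2 and 3 correlated with the same-numbered PyMT sections at 0.02, 0.244 and 0.336.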

Additional observations from a re-analysis of the deposited data

Results flagged for a closer look

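The library titled PyMT day 6 replicate 3 lay far from the other 4 PyMT libraries with 6 days of culture. The summed level of the 34 members was 484 CPM there, against 123, 132, 124 and 133 CPM in the others, and the gap to the nearest of them was 0.971 of the whole range, where Dixon's critical value for 5 samples is 0.71. The same test passed its critical value in 32 of 34 members in these 5 libraries, with ratios of 0.753 to 1.0. In 31 of the 32 the library was the highest, and in Apln it was the lowest, at 20.2 CPM against 97.1 to 109 CPM. Chance passes that value in about 1 in 20 groups when a single gene is looked at. The 34 members were measured in the same 5 libraries and are not independent of each other. The library had already been set apart by the levels of these same members, so the count adds no separate evidence. The share of all genes that pass the same test was not counted, so the count of members cannot be set against it. Markers of fibroblasts, red blood cells and leukocytes moved in the same direction in that library, and their part was not tested.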

How the results depend on the processing

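With RLE scaling every count of called members stayed within 1.5 times, and none of the members called in the fit with all libraries changed its direction under any alternative run for it. For cultured PyMT organoids against sections (18 calls), the count was 7 with no filter, 0 with only the libraries compared, 0 with the replicate block and 0 with day 6 organoids alone; against WT organoids (1 call) it was 0 in each of these and with undated organoids alone. DESeq2 gave 1 call for day 6 against day 0, 4 for cultured PyMT and 2 for Neu-NDL against WT organoids, 6 for PyMT and 6 for Neu-NT sections against WT organoids, and 1 between the sections. With only the libraries compared, PyMT and Neu-NT sections had 18 and 8 calls, and with the replicate block 20 and 5. The block changed no other call with all libraries in, and the numbers pair none of those groups by their correlations. Without both libraries that stand apart the counts were 27 (day 6 against day 0), 33 (cultured PyMT against sections), 26 (against WT), 2 (Neu-NDL), 17 (PyMT sections), 7 (Neu-NT sections) and 2 (between sections). The replicate block without the pair of replicate 3, chosen after seeing the data, gave 27. Leaving out 1 library of the comparison at a time gave 0 to 0 calls for day 0 against sections, 0 to 27 for day 6 against day 0, 0 to 32 for cultured PyMT against sections, 0 to 26 against WT, 0 to 1 for Neu-NDL, 0 to 2 for PyMT sections, 1 to 4 for Neu-NT sections and 0 to 1 between sections. Leaving out day 6 replicate 3, which is in none of the last 4 comparisons, gave 1, 16, 11 and 0 calls in them. The cause of these moves was not tested, beyond the library titled day 6 replicate 3. The undated summed level was 113 CPM with plain library totals and 28.2 CPM without the highest member of each library, and that of Neu-NT sections 316 CPM without it. Members with 0 to 3 counts in a group limit the folds that can be given. The share of all genes called is given only for the fits that print it above. For every other fit, DESeq2 included, the counts show how calls moved and cannot be read as particular to the members.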

Other observations

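Outside the 34 members, 3 genes of the further endothelial list are given with their values because they led that list by adjusted p in a comparison with WT organoids. Hey2, a Notch target that arterial endothelium and other cells make, had 7.88, 4.82 and 0.713 CPM in PyMT sections and 1.36, 2.07 and 0.828 CPM in Neu-NT sections, against 29.7, 47.4 and 50.4 CPM in WT organoids. It fell in PyMT sections (log2 fold change -3.24, SE 0.77, edgeR adjusted p = 0.0176) and in Neu-NT sections (log2 fold change -4.90, SE 0.84, adjusted p = 0.00163). Podxl, a podocalyxin that luminal epithelium also makes, had 28.0, 28.6 and 22.4 CPM in Neu-NDL organoids, against 120, 120 and 103 CPM in WT organoids (log2 fold change -2.12, SE 0.40, adjusted p = 0.0117). Stab1, a scavenger receptor of sinusoidal endothelium and macrophages, had 106, 81.8 and 34.1 CPM in Neu-NDL organoids, against 4.93, 8.07 and 10.9 CPM in WT organoids (log2 fold change 3.21, SE 0.65, adjusted p = 0.0157). The leukocyte genes were higher in the same Neu-NDL libraries, at 182 to 531 CPM summed, against 23.2 to 49.7 CPM in WT organoids, and their part in Stab1 was not tested. Neither change was particular to Neu-NDL organoids. Stab1 was also higher in PyMT sections (log2 fold change 2.92, SE 0.64, edgeR adjusted p = 0.013) and in Neu-NT sections (2.53, SE 0.63, adjusted p = 0.0123). Podxl was also lower in Neu-NT sections (-2.16, SE 0.4, adjusted p = 0.00245) and did not pass in PyMT sections (-0.99, SE 0.38, adjusted p = 0.0951).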
